A study of Mus musculus with 26 samples.

Results

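Interleukins are secreted proteins through which immune and tissue cells signal to each other. An interleukin acts when it binds a receptor chain, usually joined by a second chain that passes the signal on, and several of them are held in check by natural blockers: the receptor antagonist that Il1rn encodes occupies the interleukin-1 receptor without signalling, and the binding protein that Il18bp encodes captures free interleukin-18. In dystrophic muscle, immune cells enter around damaged fibres and are a known source of interleukins and of cells that carry their receptors.

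The genes described here are all those whose symbol on the array platform begins with Il and a digit, which gave 52 of the 6540 genes measured: 22 ligands, 3 antagonists or binding proteins, 25 receptor chains and 2 others (Il16 and Il4i1) that belong to no interleukin family by structure. The rule used the symbols and no measured value. Each gene is the average of its rows in the deposited table; 50 of the genes were on 2 rows, Il15 was on 4 and Il2ra on 8. Il1f6 and Il1f5 are the platform's names for the genes of interleukin-36 alpha and of the interleukin-36 receptor antagonist.

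The study set mouse lines that model muscular dystrophy beside wild type mice on 26 arrays with 2 colours, in 13 groups of 2 RNA samples. bl6 and bl10 were the wild type strains. mdx and mdx3cv lack dystrophin, the protein that links the cytoskeleton of the muscle fibre to its membrane. sgca, sgcb, sgcb2, sgcd and another line lack a sarcoglycan, a membrane partner of dystrophin; the last one counts in the pooled lines and has no results of its own here. dysf and sjl lack dysferlin, a membrane repair protein, sspn lacks sarcospan, another member of the dystrophin complex, and hDMD carries the human dystrophin gene. Line identities were read from the sample names, and sgcb2 was taken from its name alone to be a sarcoglycan line. Tissue, age, sex, genetic background and the number of mice per RNA sample are not stated by the labels, so strain and missing protein cannot be told apart, and the p-values cover the spread between these RNA samples, which may be technical. The 7 dystrophin- or sarcoglycan-deficient lines together (14 samples) are called the DS lines and were compared with the 4 wild type samples.

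Each RNA sample was on 2 arrays, once in either channel, and the 26 arrays form 1 closed loop without a common reference. All values are therefore log2 ratios, and the level of a gene in a group is its fitted log2 level relative to the mean of bl6 and bl10. The direction of the ratios is likely, not stated. It was read from 6 genes whose protein a line lacks, in 9 checks. With channel 1 over channel 2 the RNA was lower in that line in 7 of them, against 2 the other way. An unadjusted p under 0.05 (limma) was reached in 3 of the 7, against 0 the other way. Sgcd in sgcd was only at -0.30 ± 0.45. Sgca, the gene missing in sgca, stood at -4.33 ± 0.49 (SE, n = 2) log2 units there relative to wild type. The RNA of Dysf was not lower in dysf (0.55 ± 0.62) or sjl (0.76 ± 0.50), and Xist, which is transcribed in female cells, was 4.75 ± 0.77 higher in sgcb2 than in wild type and within 0.41 of it in the other named DS lines. In whole tissue, fewer cells of a type and less RNA per cell cannot be told apart.

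Starts of transcription were matched to RefSeq (build GRCm38.p6) for 40 of the 52 genes, with 51 windows of the 250 bases before a start. They were searched on both strands for GGGNNTTTCC, a kappaB-like motif of the inflammatory NF-kappaB factors, for TTCNNNGAA, a site of the STAT factors that act below many interleukin receptors, and for GAAANNGAAA, the core of an interferon-stimulated element. The 5 windows below are shown because they belong to the blockers that rose, to Il16, to Il6 as the ligand with the best known kappaB site, and to Il7r, which varied most among the lines. Capitals mark the kappaB-like match in Il1rn, Il16 and Il6 and the STAT site in Il7r, and Il18bp holds no match. The sequences run 5′ to 3′ on the strand of the gene.
Il1rn, chr2:24345121-24345370, plus strand: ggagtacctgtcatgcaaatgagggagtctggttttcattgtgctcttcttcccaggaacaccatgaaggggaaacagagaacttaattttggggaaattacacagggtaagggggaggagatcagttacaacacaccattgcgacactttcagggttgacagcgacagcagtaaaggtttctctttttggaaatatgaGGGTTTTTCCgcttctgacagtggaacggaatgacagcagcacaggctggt
Il18bp, chr7:102018233-102018482, minus strand: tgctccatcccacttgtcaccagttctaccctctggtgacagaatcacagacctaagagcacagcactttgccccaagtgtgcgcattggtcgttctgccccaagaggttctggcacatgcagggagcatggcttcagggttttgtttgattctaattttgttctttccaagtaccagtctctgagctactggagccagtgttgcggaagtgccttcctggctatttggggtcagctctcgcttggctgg
Il16, chr7:83655496-83655745, minus strand: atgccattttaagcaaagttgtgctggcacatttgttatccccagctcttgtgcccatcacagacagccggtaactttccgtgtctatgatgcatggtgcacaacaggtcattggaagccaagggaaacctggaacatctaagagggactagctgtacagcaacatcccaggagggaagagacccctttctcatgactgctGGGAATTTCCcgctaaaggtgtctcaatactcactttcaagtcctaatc
Il6, chr5:30012864-30013113, plus strand: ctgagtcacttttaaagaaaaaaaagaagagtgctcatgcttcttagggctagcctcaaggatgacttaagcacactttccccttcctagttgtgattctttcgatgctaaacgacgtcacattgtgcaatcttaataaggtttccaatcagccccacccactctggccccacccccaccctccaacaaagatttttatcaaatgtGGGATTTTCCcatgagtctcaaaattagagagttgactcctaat
Il7r, chr15:9529877-9530126, minus strand: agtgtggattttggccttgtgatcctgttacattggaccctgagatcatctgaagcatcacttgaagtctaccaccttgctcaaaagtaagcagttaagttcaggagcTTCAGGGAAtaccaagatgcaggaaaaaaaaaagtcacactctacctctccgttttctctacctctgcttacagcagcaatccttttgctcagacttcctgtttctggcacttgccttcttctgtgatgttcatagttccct
The kappaB-like motif lay 51 bases before the start in 1 of the 3 Il1rn windows, 49 bases before it in 1 of the 3 Il16 windows and 44 bases before it in Il6, and Il9 held it too. Of the 51 windows, 4 held this motif, while it was in 1.41% of the 32851 windows of all genes. The STAT site was in 5 of the 51 windows (Il12rb2, Il18r1, Il1f5, Il1r2 and Il7r) and in 7.02% of all windows, and the interferon-stimulated core was in 0 of the 51 and in 2.98% of all. A match is a run of letters and was not tested as a site.

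In the DS lines the genes of 2 natural blockers of the interleukin-1 family, Il1rn and Il18bp, rose, as did the receptor gene Il1r1 and Il16, while Il12a and Il15ra fell. These 6 of 52 genes (11.5%) passed an adjusted p of 0.05 (limma's moderated test over all genes, Benjamini-Hochberg), where 7.8% of all 6540 genes did. 4 of the 52 rose, against 6.45% of all genes, and 2 fell, against 1.35% of all genes. The share of interleukin genes called was thus near that of the array as a whole. The median difference of the 52 was 0.12, beside 0.06 over all genes. Of the 52, 31 (59.6%) lay above 0, beside 55.5% of all genes. An unadjusted p under 0.05 was reached by 14 (26.9%), beside 21.9% of all genes. By role, 0 of 22 ligands rose and 1 fell. Of 3 antagonists or binding proteins 2 rose, and of the 25 receptor chains 1 rose and 1 fell. The decoy receptors Il1r2 and Il13ra2 were counted as receptor chains, and neither was called. The share of blockers that rose therefore depends on this grouping. The number called ranged from 1 to 8 when a single RNA sample was left out: it was 1 without bl6 sample 1 or bl10 sample 2, 2 without bl10 sample 1 or mdx sample 1, and 3 without mdx3cv sample 2, sgca sample 1 or sgcb2 sample 1. Against bl10 alone it was 0. Leaving out an RNA sample dropped both arrays that held it, so a lost call can also reflect fewer arrays. Counts under changed settings, here and below, are given without the share of all genes called in the same fit. They do not show whether interleukin genes changed more than other genes.

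**Figure D1:**
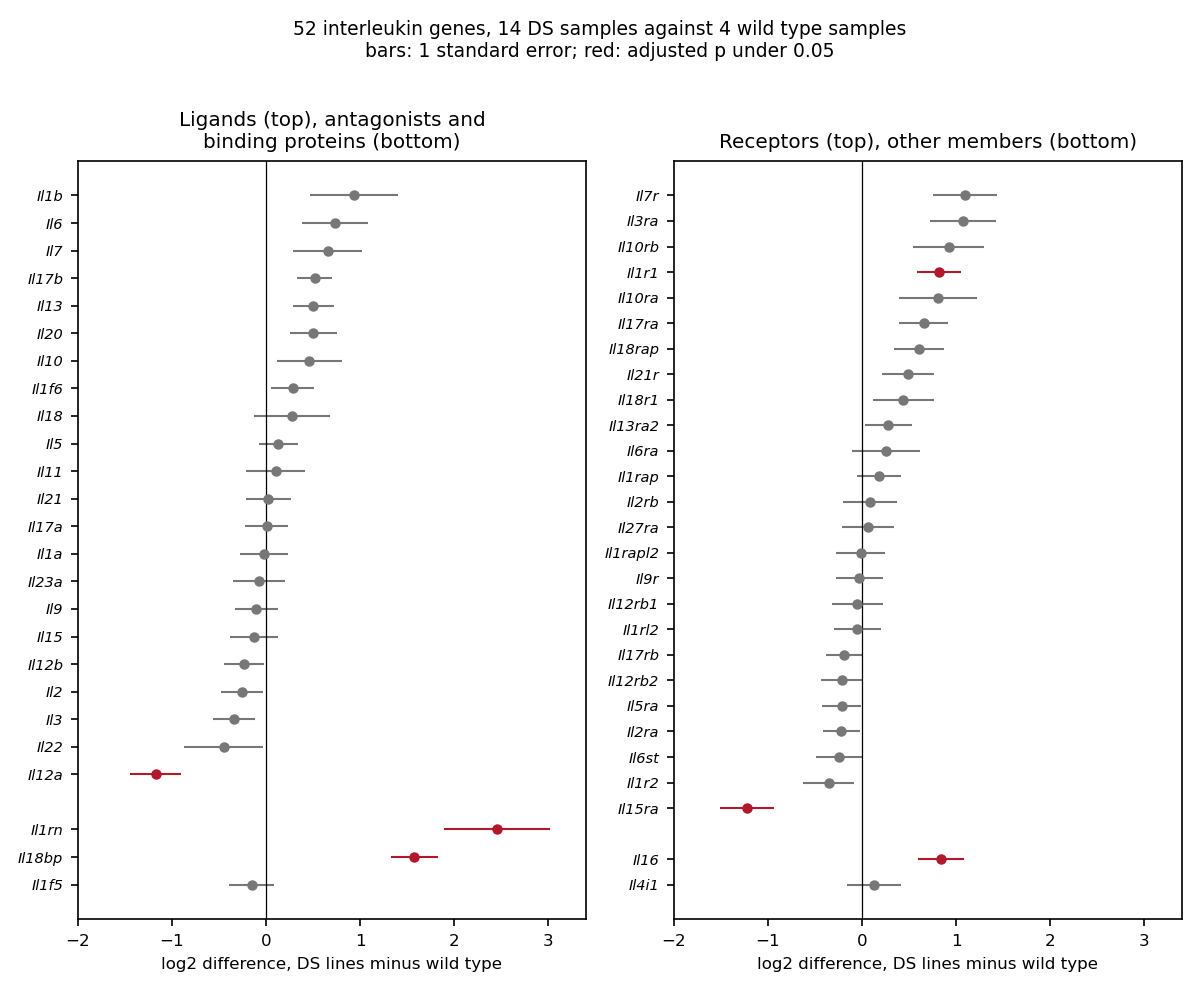
Differences between the DS lines and wild type on the log2 scale (horizontal axis) for the 52 genes, by role; points are fitted differences, bars are 1 standard error, and red marks an adjusted p under 0.05. Il1rn and Il18bp lie farthest to the right at 2.45 and 1.58, and Il15ra and Il12a farthest to the left at -1.22 and -1.17.

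Values of single RNA samples were chained along the loop and set relative to the mean of the 4 wild type samples, so errors add up between samples far apart in the loop. No interleukin gene had all 14 DS samples clear of all 4 wild type samples; over all 6540 genes, 14 (0.214%) had all DS samples above and 4 (0.0612%) all below.

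**Figure D2:**
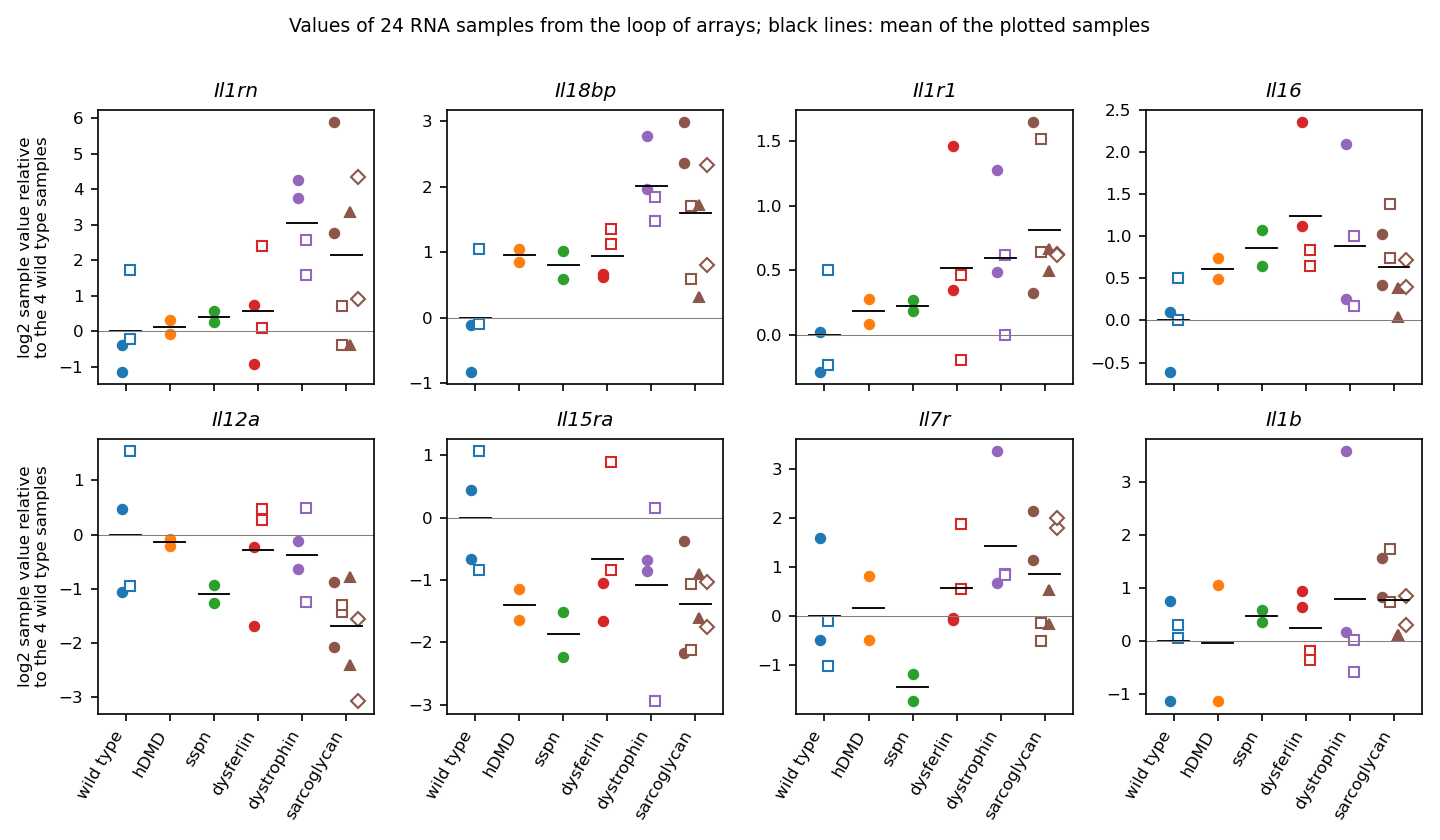
Chained log2 values (vertical axis) of 24 RNA samples for 8 genes, by kind of line, with wild type as bl6 (circles) and bl10 (squares); 2 DS samples of the line without results of its own are not drawn. The 2 samples of 1 line often differ: in mdx, Il1b stands at 3.57 and 0.17.

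Among the antagonists and binding proteins, Il1rn showed the largest difference of any interleukin gene. Its values in the wild type samples were -1.14 and -0.37 in bl6 and -0.21 and 1.72 in bl10, and in the 14 DS samples the lowest, median and highest were -0.38, 2.67 and 5.89. In 9 of the 14 DS samples it stood above all wild type samples, highest in sgca sample 1 and lowest in sgcb sample 1 and sgcb2 sample 1, so the groups overlap. The difference was 2.45 ± 0.56 (SE, n = 14 and 4; adjusted p = 0.0117, limma), or 5.48-fold, and all 7 lines lay above the wild type mean. On the arrays that held a DS sample and a wild type sample together, Il1rn was 6.49 higher in sgca sample 1 than in bl6 sample 2, 5.17 higher in mdx sample 1 than in bl6 sample 1 and 1.09 higher in mdx3cv sample 2 than in bl10 sample 2, and it was -0.40 in sgcb2 sample 1 against bl10 sample 1. Arrays against bl6 thus gave larger values than arrays against bl10. These sets of arrays held different lines, so line and control strain cannot be told apart in these ratios. Against bl10 alone the difference was 1.51 (adjusted p = 0.446), and the call was also lost without bl6 sample 1 (2.30, 0.108), bl10 sample 2 (2.84, 0.0644), mdx sample 1 (1.93, 0.115), mdx3cv sample 2 (2.41, 0.0561) or sgca sample 1 (1.67, 0.0624).

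Il18bp had the smallest p of the 52 genes. It stood at -0.12 and -0.83 in bl6 and -0.09 and 1.04 in bl10, and the DS samples ran from 0.31 through a median of 1.78 to 2.98. 11 of the 14 DS samples were above all wild type samples; the other 3 were sgcb2 sample 1, sgcb sample 1 and sgcd sample 2. The difference was 1.58 ± 0.25 (adjusted p = 0.0015, limma), or 2.98-fold. On the 5 shared arrays Il18bp was higher in the DS sample on 5, but the sizes differed by control strain. These arrays held different lines, so line and control strain cannot be told apart in them. Against bl6, Il18bp was 3.61 higher in sgca sample 1 and 3.09 higher in mdx sample 1. Against bl10, Il18bp was 0.61 higher in sgcb2 sample 1 and 0.22 higher in mdx3cv sample 2. It passed the threshold with any 1 of the 26 RNA samples left out, and was 0.92 (adjusted p = 0.218) against bl10 alone. The third gene counted as an antagonist or binding protein, Il1f5, which holds interleukin-36 in check, was at -0.15 ± 0.24 (adjusted p = 0.775, limma).

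The ligands that these blockers oppose did not pass the test. Il1b, the main secreted interleukin-1, stood at -1.12 and 0.75 in bl6 and 0.31 and 0.05 in bl10, and at -0.59, 0.52 and 3.57 as the lowest, median and highest of the DS samples. Only 6 of 14 DS samples lay above all wild type samples, and the difference was 0.94 ± 0.47 (adjusted p = 0.249, limma). Its fitted level was 2.12 in mdx and 1.65 in sgca but -0.48 in mdx3cv. Il1a, the other interleukin-1, was at -0.02 ± 0.26 (adjusted p = 0.98), Il18, which Il18bp captures, at 0.28 ± 0.40 (0.754), and Il1f6 at 0.28 ± 0.23 (0.518). Wild type values of Il18 ran from -1.53 to 1.35 and DS values from -1.61 to 3.09, a spread within which the groups could not be separated.

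Il1r1, the signalling receptor for interleukin-1, rose. The wild type samples stood at 0.02 and -0.29 in bl6 and 0.50 and -0.24 in bl10, and the DS samples at -0.00, 0.62 and 1.72 as lowest, median and highest. 9 of the 14 DS samples were above all wild type samples. The difference was 0.82 ± 0.24 (adjusted p = 0.0362, limma), or 1.77-fold. Its decoy Il1r2, which binds interleukin-1 without signalling, stood at -0.35 ± 0.27 (adjusted p = 0.484), and Il1rl2, the interleukin-36 receptor, at -0.05 ± 0.25 (0.936); Il1r2, Il1r1 and Il1rl2 are measured neighbours on the chromosome in RefSeq's order of genes. The shared accessory chain Il1rap was at 0.18 ± 0.24 (0.729) and its brain relative Il1rapl2 at -0.02 ± 0.26 (0.983). The 2 chains of the interleukin-18 receptor, Il18r1 and its neighbour Il18rap, stood at 0.44 ± 0.32 (0.473) and 0.61 ± 0.26 (0.179). The call of Il1r1 was lost in 16 of the 26 fits with a sample left out, and kept only without mdx sample 2, sgca sample 2, sgcb sample 1, hDMD sample 1, a dysferlin sample or either sample of the line not reported on its own. It was also lost at 0.75 (adjusted p = 0.0635) when arrays were centred, at 0.63 (0.201) when they were also scaled, at 0.65 (0.157) on the first row of the gene, at 0.75 (0.0803) without the sgca line and at 0.45 (0.681) against bl10 alone.

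Il16, a chemoattractant made from a larger precursor, rose with a similar size. It was at 0.10 and -0.61 in bl6 and 0.01 and 0.50 in bl10, and the DS samples ran from 0.04 through 0.70 to 2.09. 8 of 14 DS samples were above all wild type samples, mdx sample 1 being the highest. The difference was 0.84 ± 0.24 (adjusted p = 0.0392, limma), or 1.79-fold. In the dysferlin lines Il16 was 0.98 ± 0.32 above wild type (adjusted p = 0.352), and the difference between the DS and the dysferlin lines was -0.14 ± 0.25 (0.939). The call in the DS lines was lost in 17 of 26 fits with a sample left out, and kept only without mdx sample 2, mdx3cv sample 1, sgca sample 2, hDMD sample 1, a dysferlin sample or 1 of the 2 samples of the line not reported on its own. It was also lost on centred arrays (0.77, adjusted p = 0.0592), on centred and scaled arrays (0.53, 0.289), without the sgca line (0.78, 0.0793), on the first row of the gene (0.80, 0.0803) and against bl10 alone (0.48, 0.662). Il4i1, an amino acid oxidase named after interleukin-4, stood at 0.13 ± 0.29 (0.84).

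Il12a, the subunit that joins the Il12b product to make interleukin-12, was the ligand gene that fell. In the wild type samples it stood at 0.48 and -1.07 in bl6 and -0.95 and 1.54 in bl10, and the DS samples ran from -3.08 through -1.28 to 0.49. 8 of the 14 DS samples were below all wild type samples, sgcd sample 2 the lowest, while mdx3cv sample 2 was the highest. The difference was -1.17 ± 0.27 (adjusted p = 0.0132, limma), a 2.25-fold lower level, and on the 5 shared arrays the DS sample was lower on 5. Among these, the ratio was -1.58 in sgcb2 sample 1, -0.94 in mdx3cv sample 2, -0.91 in sgca sample 1 and -0.70 in mdx sample 1. Its partner Il12b stood at -0.23 ± 0.21 (adjusted p = 0.59), Il23a, the other partner of Il12b, at -0.08 ± 0.28 (0.908), and the receptor chains Il12rb1 and Il12rb2 at -0.05 ± 0.27 (0.947) and -0.21 ± 0.22 (0.65). All 5 of this family lay below 0 and 1 was called. The call of Il12a was lost against bl6 alone (-0.95, adjusted p = 0.111), against bl10 alone (-1.40, 0.0943) and without bl6 sample 1 (-1.13, 0.136), bl10 sample 1 (-1.19, 0.0634), bl10 sample 2 (-1.02, 0.176), mdx sample 1 (-1.15, 0.0672) or sgcb2 sample 1 (-1.14, 0.0746).

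Il15ra, the chain that binds interleukin-15 with high affinity and presents it to neighbouring cells, was the receptor gene that fell. Wild type samples stood at 0.45 and -0.67 in bl6 and -0.84 and 1.06 in bl10, and DS samples at -2.94, -1.05 and 0.19 as lowest, median and highest. 10 of 14 DS samples were below all wild type samples, the lowest being mdx3cv sample 1. The difference was -1.22 ± 0.29 (adjusted p = 0.0141, limma), a 2.33-fold lower level, and all 7 lines lay below the wild type mean. The ratio on shared arrays was -1.87 in sgca sample 1, -1.27 in mdx3cv sample 2, -0.95 in mdx sample 1 and -0.41 in sgcb2 sample 1. Its ligand Il15 was at -0.13 ± 0.25 (adjusted p = 0.819), Il2rb, the chain that interleukin-2 and interleukin-15 receptors share, at 0.09 ± 0.29 (0.905), and Il2ra, its neighbour on the chromosome, at -0.22 ± 0.19 (0.571). The call was lost against bl10 alone (-0.99, adjusted p = 0.272) and without bl6 sample 1 (-0.95, 0.189), bl10 sample 1 (-1.33, 0.0526) or bl10 sample 2 (-1.20, 0.128).

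Il7r, the receptor chain of interleukin-7 on lymphocytes and their precursors, missed the threshold in the pooled comparison at 1.10 ± 0.34 (adjusted p = 0.0513, limma) but differed among the 13 groups (moderated F test, adjusted p = 0.00574). Its fitted levels covered 4.84 log2 units over the 12 named groups, the widest range of the 52 genes, whose median range was 1.12 beside 1.20 over all genes. It was highest in sgcd (2.46), sgca (2.32) and mdx (1.66), followed by sjl (0.98) and sgcb2 (0.86). bl6 (0.20), mdx3cv (-0.05) and bl10 (-0.20) lay between, then sgcb and hDMD (both -0.65) and dysf (-0.83), and sspn was lowest (-2.38). Of neighbours in this order, sgcd and sgca, sjl and sgcb2, and all groups from bl6 down to dysf differ by less than the larger standard error of the pair. The sample values were 1.80 and 2.01 in sgcd, 2.14 and 1.15 in sgca, 3.36 and 0.67 in mdx, and -1.17 and -1.72 in sspn. Both sspn samples were below the 4 wild type samples, which ran from -1.02 to 1.59. In sgca, sgcd and mdx at least 1 sample each was above them, as was the highest dysferlin sample (1.89). The difference of sspn from wild type was -2.38 ± 0.59 (adjusted p = 0.144), so it was not called on its own. The pooled value passed the threshold without mdx sample 2 (1.07, adjusted p = 0.0406), sgca sample 2 (1.08, 0.048), sgcb sample 1 (1.12, 0.0399), dysf sample 1 (1.17, 0.03), sjl sample 1 (1.18, 0.0348), sjl sample 2 (1.18, 0.0478) or either sample of the line not reported on its own, and 1.61 was the highest of these values. The ligand Il7 stood at 0.66 ± 0.37 in the DS lines (adjusted p = 0.308).

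Over all 13 groups the F test called 2 of the 52 genes, Il18bp (adjusted p = 0.00536) and Il7r, where 3.2% of all genes were called. Il18bp was lowest in bl6 (-0.66), then sspn (0.24), dysf (0.41), hDMD (0.42), bl10 (0.66), sjl (0.98), sgcb (1.03), mdx3cv (1.05), sgcb2 (1.30), sgcd (1.83), mdx (1.95) and sgca (2.58). From sspn to sgcb2 each step was smaller than the standard error of the higher level, except that from hDMD to bl10, where it was smaller than the standard error of hDMD. Leaving out single samples changed the F test's count to between 1 (without sspn sample 1) and 8 (without mdx sample 2); it was 5 without sgca sample 1 or sjl sample 1, 6 without sgca sample 2 or sjl sample 2 and 7 without hDMD sample 2.

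**Figure D3:**
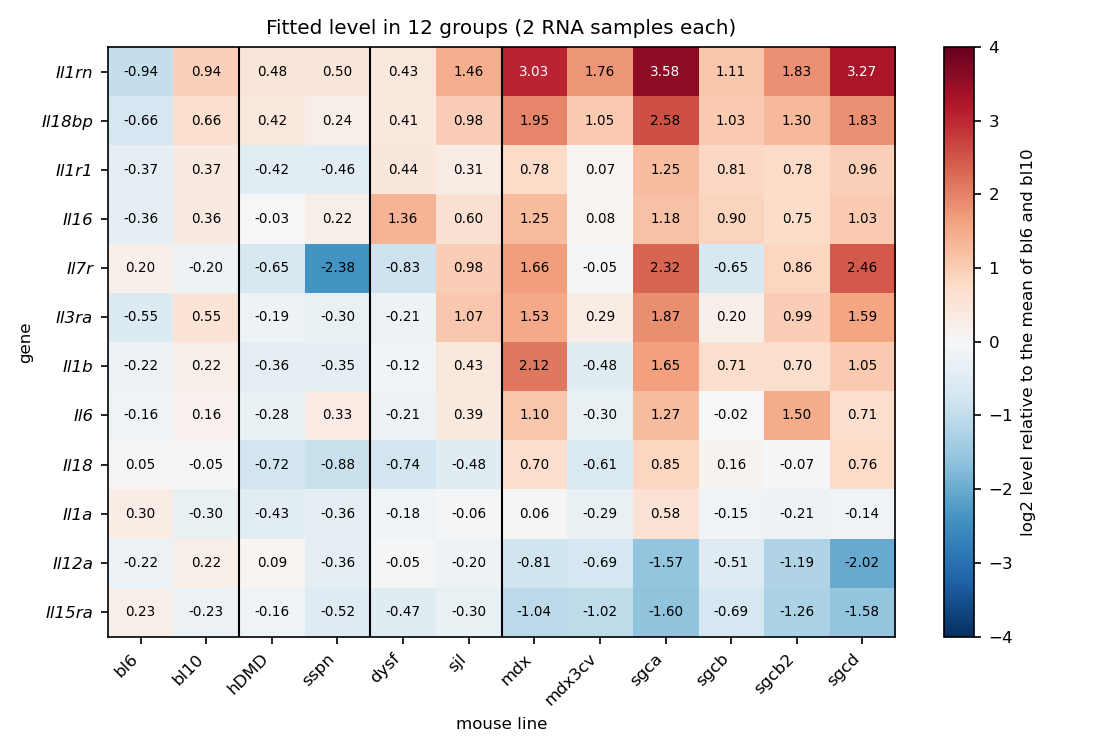
Fitted log2 levels relative to the mean of bl6 and bl10 for 12 genes (rows) in the 12 named groups (columns, 2 RNA samples each). Il1rn is highest in sgca (3.58), sgcd (3.27) and mdx (3.03), Il12a is lowest in sgcd (-2.02), and Il7r runs from -2.38 in sspn to 2.46 in sgcd.

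Among single lines, sgca had the most interleukin genes called: 8 of 52, where 7.42% of all genes passed in that comparison. Il1rn was 3.58 ± 0.80 higher (adjusted p = 0.0118, limma), Il18bp 2.58 ± 0.36 (0.000647), Il7r 2.32 ± 0.48 (0.00803) and Il3ra, the interleukin-3 receptor chain, 1.87 ± 0.50 (0.0274). Il1r1 and Il16 also rose in sgca, and Il12a and Il15ra fell. The count was 0 without sgca sample 1, 1 without bl6 sample 2, 2 without mdx sample 2, 3 without bl10 sample 1, 4 without bl10 sample 2 or mdx sample 1 and 5 without mdx3cv sample 2, sgcb2 sample 1 or sspn sample 1. In sgcd 3 of 52 were called, where 2.13% of all genes were: Il7r 2.46 ± 0.54 higher (0.0204), Il12a -2.02 ± 0.44 (0.0182) and Il18bp 1.83 ± 0.40 (0.0182). This count fell to 0 without either sgcd sample, bl6 sample 1, bl10 sample 1, sgca sample 2 or either sgcb2 sample, to 1 without sgca sample 1, and reached 5 without sjl sample 1. In mdx 1 of 52 was called, where 1.33% of all genes were: Il18bp 1.95 ± 0.35 higher (0.0112). Il1rn in mdx stood at 3.03 ± 0.78 (0.0605). The mdx count was 0 without bl6 sample 1, mdx sample 1 or mdx3cv sample 2, 2 without sjl sample 2, 3 without sjl sample 1 or either sample of the line not reported on its own, 5 without sgca sample 2, 6 without sgca sample 1 and 8 without mdx sample 2.

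The other lines had no interleukin gene past the threshold in limma's test. The count was 0 of 52 in mdx3cv (0% of all genes called), in sgcb (0.107% of all genes) and in sgcb2 (0.199% of all genes). At an unadjusted p under 0.05 there were 4 of 52 in mdx3cv (7.69%, beside 8.65% of all genes). In sgcb there were 4 (7.69%, beside 11.2%), and in sgcb2 there were 6 (11.5%, beside 9.04%). The smallest p in mdx3cv was that of Il13, a type 2 cytokine, at 1.18 ± 0.32 (adjusted p = 0.348), followed by Il18bp at 1.05 ± 0.37 (0.413). In sgcb they were Il18bp at 1.03 ± 0.43 (0.393) and Il17b at 0.72 ± 0.32 (0.411), and in sgcb2 Il18bp at 1.30 ± 0.37 (0.183) and Il12a at -1.19 ± 0.41 (0.29). All of these comparisons share the wild type samples. The dystrophin lines and the sarcoglycan lines differed in 0 of 52 genes (0.0153% of all genes). An unadjusted p under 0.05 was reached by 2 of 52 (3.85%, beside 2.09% of all genes). They were Il1f6 at -0.54 ± 0.25 and Il1r1 at -0.55 ± 0.26 (both adjusted p = 0.9998).

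In the dysferlin lines 0 of 52 genes passed against wild type (0.0459% of all genes). At an unadjusted p under 0.05 there were 5 of 52 (9.62%, beside 8.78% of all genes). Il1r2 was at -0.91 ± 0.35 (adjusted p = 0.439), Il18bp at 0.70 ± 0.33 (0.546) and Il1rn at 0.94 ± 0.74 (0.808). In dysf alone 0 passed (0.107% of all genes), and 2 of 52 had an unadjusted p under 0.05 (3.85%, beside 8.46%). These were Il16 at 1.36 ± 0.43 (adjusted p = 0.424) and Il13 at 0.81 ± 0.39 (0.586). In sjl alone 0 passed (0.245% of all genes), and 6 of 52 had an unadjusted p under 0.05 (11.5%, beside 9.63%). Among them were Il1r2 at -1.32 ± 0.38 (adjusted p = 0.209) and Il18bp at 0.98 ± 0.36 (0.321). Tested directly, the DS lines differed from the dysferlin lines in 0 of 52 genes (0.122% of all genes). At an unadjusted p under 0.05 there were 6 of 52 (11.5%, beside 8.44%). The smallest p-values were those of Il12a at -1.05 ± 0.28 (0.195) and Il18bp at 0.88 ± 0.25 (0.245), so the calls in the DS lines are not shown to be particular to them. Without sgcb sample 1, 1 gene passed in this comparison.

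In sspn 0 of 52 passed (0.107% of all genes), and 2 of 52 had an unadjusted p under 0.05 (3.85%, beside 12.1% of all genes). After Il7r, the smallest p was that of Il18rap at 1.18 ± 0.46 (adjusted p = 0.301). Without sgca sample 1, 1 gene passed there. In hDMD 0 of 52 passed (0.0153% of all genes), and 2 of 52 had an unadjusted p under 0.05 (3.85%, beside 6.56%). The smallest p was that of Il17ra at 1.17 ± 0.43 (adjusted p = 0.59), and next Il23a (0.752).

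The spread between the wild type strains was also measured. bl10 against bl6 gave 0 of 52 genes past the threshold (0.0153% of all genes), but 9 of 52 (17.3%) had an unadjusted p under 0.05, beside 7.98% of all genes. Il1rn was 1.89 ± 0.89 higher in bl10 (adjusted p = 0.61, limma), Il18r1 1.56 ± 0.51 (0.472), Il18bp 1.32 ± 0.39 (0.44) and Il18rap 1.21 ± 0.42 (0.503). For Il1rn and Il18bp the higher bl10 sample was sample 2, at 1.72 and 1.04, while its sample 1 stood at -0.21 and -0.09. On the array that held bl10 sample 1 and bl6 sample 2 together, Il18bp was 0.95 and Il1rn -0.07.

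The remaining families had 0 genes called in the DS lines. Il6, an early inflammatory cytokine, stood at 0.74 ± 0.35 (adjusted p = 0.224), with wild type samples from -0.78 to 0.66 and DS samples from -1.04 through 0.99 to 2.04. 8 of the 14 DS samples lay above all wild type samples and 1 below, and 5 of the 7 lines lay above the wild type mean. Its receptor Il6ra was at 0.25 ± 0.36 (0.746), the shared signalling chain Il6st at -0.24 ± 0.25 (0.638), Il11 at 0.10 ± 0.31 (0.896) and Il27ra at 0.06 ± 0.27 (0.927). In the interleukin-10 family, Il10 itself, which restrains inflammation, was at 0.46 ± 0.35 (0.487), its receptor chains Il10ra and Il10rb at 0.81 ± 0.42 (0.267) and 0.92 ± 0.38 (0.155), Il20 at 0.50 ± 0.25 (0.242) and Il22 at -0.45 ± 0.42 (0.597). Il3ra had all 7 DS lines above the wild type mean, at 1.07 ± 0.35 (0.0669), but its wild type samples ran from -1.78 to 2.57 and only 1 DS sample was above them.

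The cytokines of type 2 immunity and of lymphocyte growth and their receptors, apart from Il15ra, did not pass the test in the DS lines. Il3 was at -0.34 ± 0.22 (adjusted p = 0.393), Il5, the eosinophil growth factor, at 0.13 ± 0.21 (0.78) and its receptor Il5ra at -0.21 ± 0.21 (0.606). Il13 was at 0.50 ± 0.22 (0.177) and its decoy receptor Il13ra2 at 0.28 ± 0.25 (0.579). Of the cytokines that share the common gamma chain, Il2 was at -0.26 ± 0.23 (0.566), Il9 at -0.11 ± 0.23 (0.835), its receptor Il9r at -0.03 ± 0.25 (0.966), Il21 at 0.03 ± 0.24 (0.967) and its receptor Il21r at 0.49 ± 0.28 (0.32). In the interleukin-17 family, Il17a was at 0.01 ± 0.23 (0.992), Il17b at 0.52 ± 0.19 (0.0987), Il17ra at 0.66 ± 0.26 (0.132) and Il17rb at -0.19 ± 0.20 (0.651). A p above the threshold does not show that a level was the same. Standard errors of about 0.2 to 0.4 leave room for changes that are not small: Il3ra at 1.07 and Il10rb at 0.92 were not called.

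Agreement between the rows of a gene differed widely among these genes. Over the 26 arrays the 2 rows of a gene correlated at a median r of 0.60 (from -0.14 to 0.97) over the 50 genes on 2 rows; 11 were above 0.8 and 19 below 0.5. Over the 6370 genes on 2 rows the median was 0.69, with 37.1% above 0.8 and 31.7% below 0.5. The 6 called genes had values of 0.97 (Il12a), 0.95 (Il1rn), 0.93 (Il15ra), 0.90 (Il1r1), 0.80 (Il18bp) and 0.73 (Il16), and their 2 rows gave the same sign. Il7r (0.95) and Il1b (0.93) were as high. Il21 (-0.14), Il5 (-0.11) and Il1rap (0.09) were at the other end, and the lowest pair among the 8 rows of Il2ra was at -0.27. These r values share the same arrays and are given as a description. The 2 rows of each called gene belong to the same sequence record, so their agreement is not independent support for a call. A gene that varies more over the arrays can also reach a higher r.

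**Figure D4:**
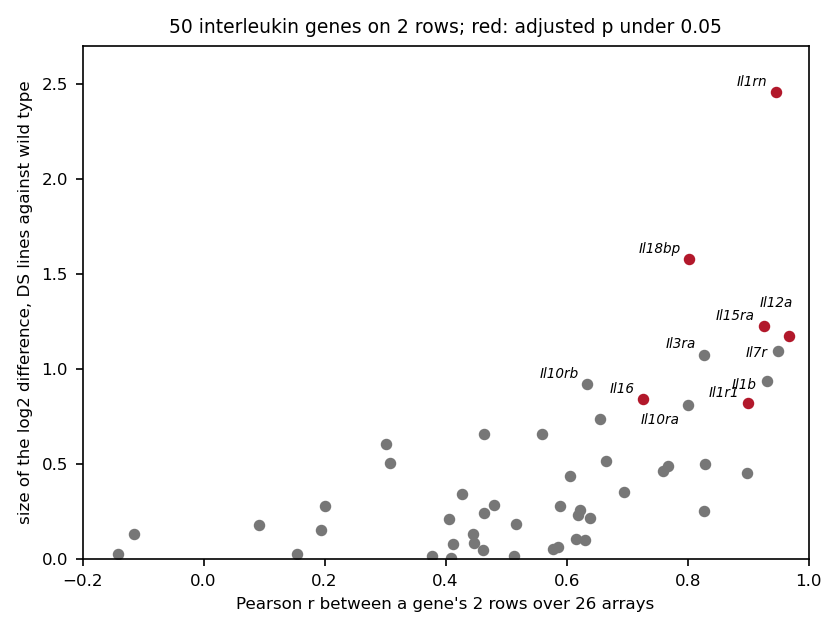
Agreement of the 2 rows of a gene over 26 arrays (horizontal axis, Pearson r) and the size of its log2 difference between the DS lines and wild type (vertical axis) for 50 genes; red marks an adjusted p under 0.05. The 6 called genes lie at r of 0.73 or more, and Il21 and Il5 have r below 0.

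Genes that work with the interleukins were taken from 6 lists. In JAK-STAT signalling 1 of 9 measured genes rose in the DS lines, Stat2 at 1.43 ± 0.30 (adjusted p = 0.00741, limma), and 0 fell. Of 10 suppressors of cytokine signalling 0 rose and 1 fell, Cish, which STAT5 induces, at -2.84 ± 0.51 (0.00296). Of 10 genes of interleukin-1 and toll-like receptor signalling 1 rose, the kinase gene Ikbkb at 0.84 ± 0.19 (0.00994). Of 3 genes of interleukin-1 maturation 2 rose: Casp1, the protease that cuts the precursors of interleukin-1 beta and interleukin-18, at 1.98 ± 0.54 (0.0279) and Casp4 at 1.48 ± 0.39 (0.0244). Of 7 genes listed as related to interleukin receptors but named otherwise, 3 rose. Csf2ra was at 2.31 ± 0.43 (0.00328) and Csf2rb2, a beta chain for interleukin-3, at 1.05 ± 0.26 (0.02). Ebi3, which encodes a subunit of the cytokine interleukin-27 and not a receptor, was at 1.08 ± 0.27 (0.0187). Of 8 nearby cytokines 0 passed; the smallest p-values were those of Csf3 at -0.51 ± 0.22 (0.17) and Lif at 0.44 ± 0.22 (0.24).

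Several markers of macrophages, neutrophils and fibroblasts rose in the DS lines, with different orders of the lines. Of 9 measured macrophage markers, 5 rose in the DS lines (Adgre1, Cd68, Mpeg1, Ctss and Mrc1) and 8 lay above 0. The mean of the 9 was -0.45 in bl6 and 0.45 in bl10, ran from 0.60 in sgcb to 2.68 in sgcd among the named DS lines with 2.58 in sgca and 2.15 in mdx, and stood at 1.18 in sjl, 0.13 in dysf, -0.70 in hDMD and -0.72 in sspn. Of 8 neutrophil markers 3 rose (S100a8, S100a9 and Ngp), and the mean of the 8 was highest in sgcb (2.82), dysf (2.64), sgca (2.19) and sspn (2.14), with 1.08 in mdx and 1.07 in sgcd. Of 5 fibroblast markers 4 rose (Col1a1, Col3a1, Fap and Dcn), and the mean of the 5 was 1.84 in sgcd, 1.67 in sgcb, 1.56 in dysf, 1.46 in sgca and 1.37 in mdx. In the lines listed with the highest neutrophil means (sgcb, dysf, sgca and sspn), Il1rn stood at 1.11, 0.43, 3.58 and 0.50. Il18bp stood at 1.03, 0.41, 2.58 and 0.24 in the same lines. There the macrophage mean was 0.60, 0.13, 2.58 and -0.72, and the fibroblast mean 1.67, 1.56, 1.46 and 0.98. These lines were picked by their neutrophil means, and no link between markers and interleukin genes was tested. Of 6 T cell markers 1 rose, Cd8b1 at 0.74 ± 0.21 (adjusted p = 0.0396), and the mean of the 6 lay between -0.21 and 0.33 in all 12 named groups. Of 6 mast cell, eosinophil and basophil markers 1 rose, Cma1 at 1.05 ± 0.28 (0.0243). Of 5 B cell, 6 NK cell, 6 endothelial and 5 muscle fibre markers 0 passed. Ratios do not show whether a marker was near 0, so the tissue could not be checked from these values, and the part of these cells in the interleukin differences was not tested.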

How the data were processed

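The labels give 26 arrays with 2 channels, and the authors deposited a single value per spot, on a natural log scale that no label names. The unit was read from recurring steps in the values on all 26 arrays, of which between 12 and 674 chains per array fitted the natural log and 0 fitted log2 or log10. Their constant showed a generalized logarithm, which understates changes of dim spots. The natural log values as the authors deposited them were divided by 0.693 to give log2 ratios, with no further normalization; the authors' normalization and scanner are not given in the sources used here. The array medians lay between -0.074 and 0.173 on the deposited scale. Of 16416 rows, 13662 had 1 gene in the platform annotation, and rows of a gene were averaged.

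The log2 ratios of all 6540 genes were fitted together by generalized least squares (R 4.3.3), with 1 dye term, 12 group terms and the RNA sample as a random effect (variance ratio 0.207), leaving 13 residual degrees of freedom. limma 3.58.1 moderated the variances, and Benjamini-Hochberg adjustment ran across the whole table, with a threshold of 0.05. The fit was tested on simulated data. The number of arrays limits the precision. No filter on low values was applied, so all 52 genes were tested. Full values are given for genes past the threshold and for Il7r and Il1b; the others are given by their difference, standard error and adjusted p. The genes, lists and tests were chosen with earlier results of these data known. Alternatives covered array scaling, rows, weights, controls, the pooled lines, the log unit, a replicate block and leaving out each RNA sample. Leaving out a sample dropped both of its arrays and so opened the loop. The samples that shared those arrays each lost an array too.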

Additional observations from a re-analysis of the deposited data

How the results depend on the processing

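The differences of the 6 called genes and Il7r between the DS lines and wild type kept their sign under each alternative run. On arrays centred and scaled, the count of interleukin genes called was 0 in mdx and 4 in sgca. With no sample effect it was 2 in mdx, 5 in sgcd and 7 in the F test, and with array weights it was 1 in sspn, 13 in sgca, 1 in sgcb2 and 9 in the F test. Against bl6 alone it was 4 in mdx, and against bl10 alone 0 in the DS lines, mdx, sgca and sgcd. Leaving out single RNA samples gave counts from 1 to 8 in the DS lines, 0 to 1 between DS and dysferlin lines, 0 to 1 in sspn, 0 to 8 in mdx, 0 to 10 in sgca, 0 to 5 in sgcd and 1 to 8 in the F test. The cause was not tested. These counts stand without the share of all genes called in the same fit. Whether their changes are particular to interleukin genes cannot be read from them. With a replicate block the DS count was 7, Il7r joining at 1.12 (adjusted p = 0.048, limma), and no other call changed. Il7r also passed with no sample effect (1.09, 0.034), with array weights (1.15, 0.0183), on the first row of a gene (1.27, 0.0433) and without sgcb2 (1.13, 0.0489), which makes 5 of 13 settings; its values over the 13 ran from 0.76 to 1.30. Whether sample numbers pair the samples could not be settled. Over 78 pairs of groups, deviations of same-numbered samples correlated from -0.80 to 0.66, 31 of them above 0.1. These deviations come from chained values, which share array errors along the loop. Reading the deposited values as log2, 1 of the 13 settings, multiplies every value by the same constant. It made the differences smaller and could not change a call. The spread among 2 RNA samples per group sets the limit on single lines.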
